A study of Mus musculus with 12 samples.

Results

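S100a8, S100a9, Clec4d, Csf3r, Il1b, Mmp9, Cd14, Chil3, Plaur and Adgre1, genes that neutrophils, monocytes and macrophages are known for, were followed in RNA from CD4 T cells sorted out of mouse kidneys. The 10 genes were chosen by symbol, with earlier results of these data known. All 10 were found among the 52632 genes of the expression table and passed the filter on low values (an average of 1 FPKM or more across libraries, met by 19288 genes). FPKM is the number of fragments scaled by transcript length and by the fragment total of the library, so levels can be compared between genes. The 4 groups held 3 libraries each. KO IRI came from CD4 Keap1 KO mice after ischemia-reperfusion injury (IRI), KO control from CD4 Keap1 KO mice without it, WT IRI from WT C57BL6/J mice after IRI and WT control from WT C57BL6/J mice without it. IRI was a clamp on both renal pedicles for 30 min, with the kidneys taken 24 h later. WT mice were bought and KO mice were bred in house, so genotype and source of the mice cannot be told apart. The labels state neither how Keap1 was deleted, nor the age of the mice, nor whether controls had sham surgery, nor whether replicates were separate animals, so a p-value covers the spread between libraries, which may be technical.

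Neutrophils and inflammatory monocytes are among the first blood cells to enter a kidney after ischemia. S100a8 and S100a9 encode the 2 subunits of calprotectin, a calcium-binding protein that fills the cytoplasm of both cell types and that TLR4 and RAGE sense once it is released. Clec4d and Cd14 are surface sensors of microbial lipids, Csf3r is the receptor for the neutrophil growth factor G-CSF, and Il1b encodes the cytokine interleukin-1 beta. Plaur encodes the urokinase receptor, Mmp9 a secreted matrix-degrading protease, Chil3 the chitinase-like protein Ym1 and Adgre1 an adhesion receptor on the surface of macrophages. None of these genes defines a CD4 T cell, although activated T cells can transcribe some of them, Plaur among them.

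The promoters are shown of the 5 transcripts that were called higher after IRI, averaged over genotype, and have a RefSeq promoter entry. Each window runs from 250 bases before to 50 bases after the start (RefSeq, GRCm38.p6, 5′ to 3′ on the strand of the gene). Entries were found for 7 of the 10 genes, and Mmp9, Cd14 and Adgre1 are named only. The windows are chr3:90668821-90669120 on the plus strand for S100a8, chr3:90695672-90695971 on the minus strand for S100a9, chr6:123261857-123262156 on the plus strand for Clec4d, chr3:106167515-106167814 on the minus strand for Chil3 and chr7:24462233-24462532 on the plus strand for Plaur. Capitals mark matches on either strand to TTGCNNAA, the core letters of C/EBP sites, or to GAGGAAG, the core letters of PU.1 sites. C/EBP and PU.1 are transcription factors of myeloid cells.
S100a8: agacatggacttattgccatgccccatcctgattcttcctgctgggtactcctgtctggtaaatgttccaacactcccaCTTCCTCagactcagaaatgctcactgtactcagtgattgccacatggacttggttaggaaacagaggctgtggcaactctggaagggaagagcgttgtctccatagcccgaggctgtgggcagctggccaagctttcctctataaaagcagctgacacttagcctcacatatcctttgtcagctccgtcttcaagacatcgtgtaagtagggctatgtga
S100a9: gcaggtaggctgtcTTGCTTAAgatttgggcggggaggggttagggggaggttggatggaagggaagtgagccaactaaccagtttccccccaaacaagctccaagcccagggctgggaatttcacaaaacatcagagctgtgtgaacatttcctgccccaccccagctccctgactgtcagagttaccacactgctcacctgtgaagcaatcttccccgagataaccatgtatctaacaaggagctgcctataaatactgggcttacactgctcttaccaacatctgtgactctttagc
Clec4d: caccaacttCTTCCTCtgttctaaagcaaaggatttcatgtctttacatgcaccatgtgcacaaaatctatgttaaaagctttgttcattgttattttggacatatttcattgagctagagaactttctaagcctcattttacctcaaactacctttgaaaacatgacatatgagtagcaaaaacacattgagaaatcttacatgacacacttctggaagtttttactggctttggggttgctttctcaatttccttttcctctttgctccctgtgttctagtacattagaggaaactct
Chil3: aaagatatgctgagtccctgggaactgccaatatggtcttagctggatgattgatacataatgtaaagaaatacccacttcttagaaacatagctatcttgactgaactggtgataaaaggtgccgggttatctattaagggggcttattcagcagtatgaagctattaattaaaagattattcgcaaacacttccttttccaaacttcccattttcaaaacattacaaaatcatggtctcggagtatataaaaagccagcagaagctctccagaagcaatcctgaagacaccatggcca
Plaur: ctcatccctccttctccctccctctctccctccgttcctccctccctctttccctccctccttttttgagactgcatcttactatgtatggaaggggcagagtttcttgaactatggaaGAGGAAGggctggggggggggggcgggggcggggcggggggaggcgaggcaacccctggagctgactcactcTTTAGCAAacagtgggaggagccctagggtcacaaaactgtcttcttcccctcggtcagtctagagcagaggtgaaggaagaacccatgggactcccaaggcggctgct
The PU.1 letters stand at bases −171 to −165 of S100a8 (minus strand), −241 to −235 of Clec4d (minus strand) and −131 to −125 of Plaur (plus strand). The C/EBP letters stand at bases −236 to −229 of S100a9 (plus strand) and −59 to −52 of Plaur (minus strand), and the window of Chil3 holds neither. All positions are counted from the RefSeq start used for the window, which can differ from the gene coordinates given below, as for S100a8. Of the 32851 promoter windows of the same length, 13.6% hold the PU.1 letters and 10.8% the C/EBP letters. Of the entries not printed, that of Csf3r holds the PU.1 letters at bases −86 to −80 (plus strand) and that of Il1b holds neither. A match describes letters and does not show binding.

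The libraries were uneven. Their FPKM summed to between 739969 and 2089551, their 3 most abundant genes took 17.67% to 63.08% of that sum, and depth is unknown because FPKM gives no counts. Even Malat1, which every cell makes, had a listed 0 in KO control 1, so a value of 0 is given only as listed and may be a failed estimate. Earlier results of these data had 3 libraries stand apart from their groups, namely KO control 1, WT IRI 3 and WT control 3, and counts are also given without them. Keap1 lay between 4.59 and 7.77 FPKM in KO libraries and between 6.03 and 9.87 in WT libraries, a value for the whole gene that does not check a deletion within it. Nqo1, a target of the factor that Keap1 restrains, lay between 3.38 and 7.75 FPKM in KO libraries and at most at 0.543 in WT libraries. The sorted cell type was checked by Cd4, at 49.7 to 382 FPKM over the 12 libraries, and by the T cell receptor subunit Cd3e, at 73.8 to 324. Cd4 itself differed by genotype, at 149 to 382 FPKM in KO libraries and 49.7 to 101 in WT libraries.

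After IRI, S100a8, S100a9, Clec4d, Cd14, Chil3 and Plaur were higher than in controls, Mmp9 and Adgre1 were lower, and Il1b and Csf3r did not pass the test. These 6 higher and 2 lower of 10 transcripts stand against 3.01% of all tested genes called higher and 6.03% called lower (9.04% in either direction), averaged over genotype (limma, all 12 libraries in 1 fit, Benjamini-Hochberg over all tested genes, threshold 0.05). The median difference of the 10 transcripts on the log2(FPKM + 1) scale was 1.90, beside −0.003 for all tested genes. S100a8, S100a9 and Clec4d averaged 0.442, 0.377 and 0.105 FPKM in the control libraries. They passed the filter only through the IRI libraries, so the count of 6 and the median are not independent of it. The 10 genes were also chosen with earlier results of these data known, so the counts and the median are not independent of that choice. Every IRI library lay above every control library for Clec4d and Plaur and below every control library for Mmp9 and Adgre1, 4 of 10 transcripts, a separation that 1.46% of tested genes showed above, 2.19% below and 3.65% in either direction. An average over genotype does not show that both genotypes changed, and in bulk RNA fewer cells of a type cannot be told apart from less RNA per cell. After a rescaling of each library by median ratios, as used for counts, the result was again 6 higher and 2 lower, beside 13.7% of tested genes called.

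**Figure D1:**
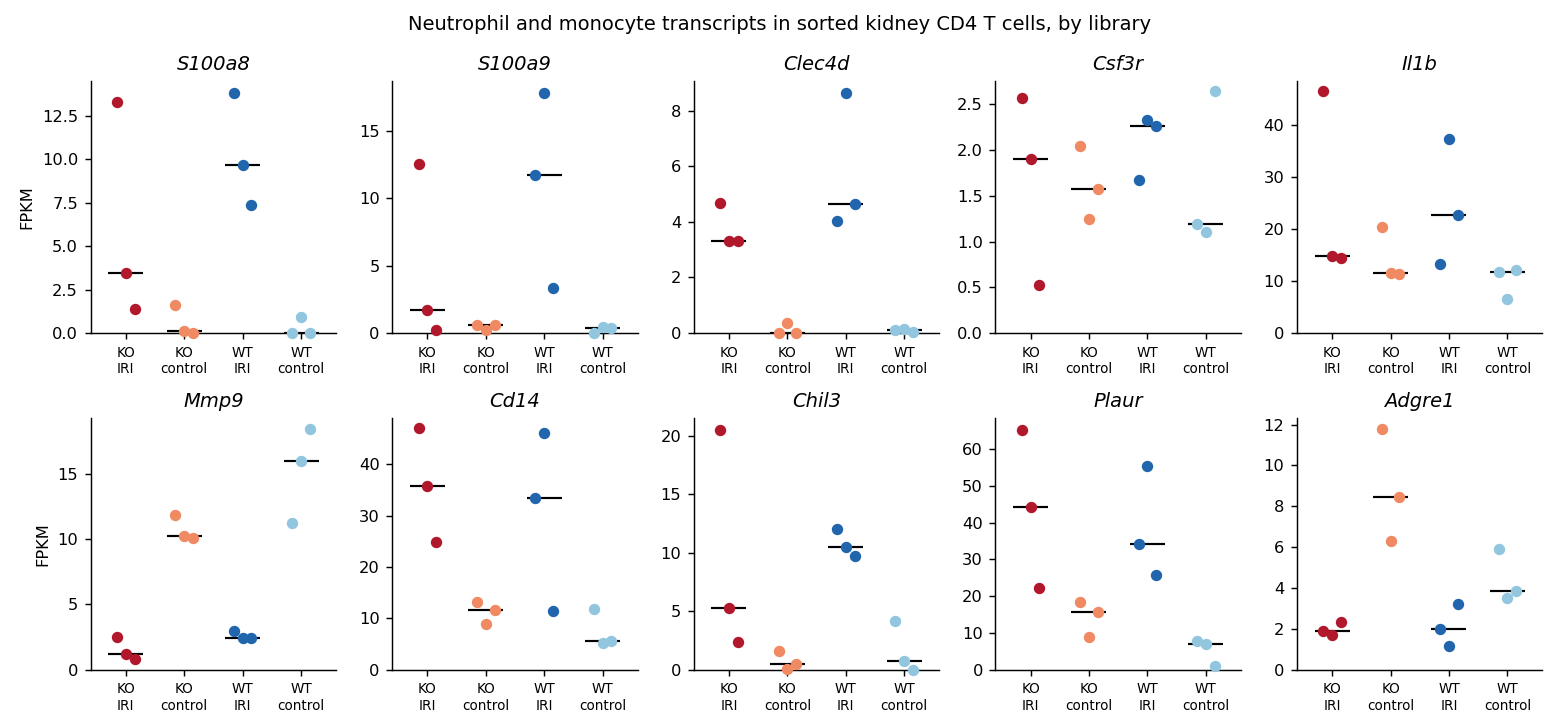
FPKM of each of the 10 transcripts (vertical axis, linear, starting at 0 and scaled per gene) in the 12 libraries, which are points in 4 columns for KO IRI, KO control, WT IRI and WT control, with the median of each group as a bar. The 6 IRI libraries lie above all 6 control libraries for Clec4d and Plaur and below them for Mmp9 and Adgre1, while KO IRI libraries range from 1.36 to 13.3 FPKM for S100a8.

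S100a8 (ENSMUSG00000056054.9, chromosome 3, 90668978 to 90670035, plus strand, GRCm38) was at 13.3, 3.45 and 1.36 FPKM in KO IRI, against 1.6 and 0.115 FPKM in KO control 1 and 2 and listed at 0 in KO control 3. It was at 13.8, 9.69 and 7.37 FPKM in WT IRI, against 0.938 FPKM in WT control 2 and listed at 0 in WT control 1 and 3. The 3 WT IRI libraries were all high and close together, whereas KO IRI held 1 library at the WT IRI level and 2 well below it, and KO IRI 3 lay under KO control 1. Averaged over genotype, S100a8 rose by a log2 difference of 2.52 ± 0.43 (SE, adjusted p = 0.00553).

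S100a9, the partner subunit (ENSMUSG00000056071.12, chromosome 3, 90692632 to 90695721, minus strand), was at 12.5, 1.69 and 0.25 FPKM in KO IRI, against 0.576, 0.235 and 0.598 FPKM in KO control. In WT IRI it was at 11.7, 17.8 and 3.34 FPKM, against 0.0345, 0.445 and 0.371 FPKM in WT control. KO IRI 1 and all 3 WT IRI libraries were high, and KO IRI 3 lay within the KO control range. Its rise of 2.14 ± 0.54 (SE, adjusted p = 0.0328) was the least secure of the 6. The call was lost when any 1 of 9 libraries was left out (WT control 1, 2 or 3, WT IRI 1 or 2, KO control 1, 2 or 3, or KO IRI 2; adjusted p = 0.0532 to 0.088), when the 3 libraries that stood apart were all left out (adjusted p = 0.083), with a pseudocount of 5 (1.06, adjusted p = 0.0625), and with a filter of 0.1 FPKM or none (adjusted p = 0.06 and 0.0797).

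Of the 10 genes listed for calprotectin and what senses it, 4 rose, none fell and 6 did not pass. Besides S100a8, S100a9 and Cd14 the fourth was Ager, which encodes the receptor RAGE, at 10.3 ± 3.89 FPKM in IRI and 2.36 ± 0.683 FPKM in control libraries (SD, n = 6 each; log2 difference 1.69 ± 0.26, adjusted p = 0.00294). Tlr4 differed by 0.20 ± 0.25 (adjusted p = 0.671) and Ly96, its co-receptor, by 0.29 ± 0.36 (adjusted p = 0.65).

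Clec4d (ENSMUSG00000030144.4, chromosome 6, 123262111 to 123275265, plus strand) was at 4.68, 3.33 and 3.3 FPKM in KO IRI, against 0.351 FPKM in KO control 2 and listed at 0 in KO control 1 and 3. It was at 4.02, 8.64 and 4.63 FPKM in WT IRI, against 0.0956, 0.149 and 0.0341 FPKM in WT control. All 6 IRI libraries were above 3 FPKM and all 6 controls near 0, in both genotypes. Its rise of 2.33 ± 0.20 (SE, adjusted p = 0.000186) had the smallest SE of the 6. Among the 10 C-type lectin receptors and adaptors listed, 2 rose and 1 fell. Clec4e, which encodes Mincle, the partner of Clec4d in sensing mycobacterial lipid, was at 4.08 ± 1.96 FPKM in IRI and 0.819 ± 0.379 FPKM in control libraries (SD, n = 6 each; 1.43 ± 0.25, adjusted p = 0.00598). Clec4a2, an inhibitory lectin receptor of dendritic cells, fell by 0.85 ± 0.23 (adjusted p = 0.0407, and 0.107 without the 3 libraries that stood apart).

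Cd14 (ENSMUSG00000051439.6, chromosome 18, 36725067 to 36726798, minus strand) was at 47.0, 35.8 and 24.8 FPKM in KO IRI, against 13.2, 8.88 and 11.6 FPKM in KO control. It was at 33.4, 46.1 and 11.4 FPKM in WT IRI, against 11.9, 5.15 and 5.52 FPKM in WT control. The KO groups did not overlap, and in WT the third IRI library lay just under the highest control. Over genotypes Cd14 averaged 33.1 ± 13.5 FPKM in IRI and 9.36 ± 3.42 FPKM in control libraries (SD, n = 6 each), a rise of 1.66 ± 0.33 (SE, adjusted p = 0.0117).

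Csf3r (ENSMUSG00000028859.14, chromosome 4, 126024550 to 126044440, plus strand) did not separate the groups. It was at 2.57, 1.9 and 0.521 FPKM in KO IRI, against 2.05, 1.25 and 1.58 FPKM in KO control, and at 1.67, 2.33 and 2.26 FPKM in WT IRI, against 1.19, 1.11 and 2.65 FPKM in WT control. The difference of 0.10 ± 0.24 (SE, adjusted p = 0.836) became −0.025 without KO IRI 1. Of the 7 colony-stimulating factor and receptor genes tested, Csf2rb, the shared receptor chain for GM-CSF and IL-3, rose by 0.89 ± 0.21 (adjusted p = 0.0229) and Csf1, the macrophage growth factor, fell by 0.91 ± 0.25 (adjusted p = 0.0439). Neither call held without the 3 libraries that stood apart (adjusted p = 0.0572 for Csf2rb and 0.104 for Csf1) or once the FPKM totals were made equal (0.0707 and 0.0687), and that of Csf1 was also lost after rescaling (0.0519).

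Il1b (ENSMUSG00000027398.13, chromosome 2, 129364570 to 129371139, minus strand) was at 46.5, 14.9 and 14.5 FPKM in KO IRI, against 20.5, 11.5 and 11.3 FPKM in KO control. It was at 13.2, 37.4 and 22.8 FPKM in WT IRI, against 11.8, 6.63 and 12.1 FPKM in WT control. The WT groups did not overlap but by a narrow gap, and the KO groups overlapped. The average difference of 0.86 ± 0.34 did not pass (SE, adjusted p = 0.159), and the exact permutation test that exchanges IRI and control labels within each genotype gave p = 0.05 (two-sided, 400 arrangements, smallest possible p = 0.005). An antisense gene, Il1bos, overlaps Il1b at a mean of 0.719 FPKM, and whether the counting used strand is not stated. Of the 10 interleukin-1 and inflammasome genes tested, 2 rose and 1 fell, and 0 rose without the 3 libraries that stood apart, or once the FPKM totals were made equal. The 2 were antagonists of the pathway, the decoy receptor Il1r2 (1.25 ± 0.34, adjusted p = 0.0435) and Il1rn (0.80 ± 0.22, adjusted p = 0.0453), and the pore-forming Gsdmd fell by 1.33 ± 0.16 (adjusted p = 0.000992).

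Plaur (ENSMUSG00000046223.10, chromosome 7, 24462484 to 24475968, plus strand) was the most abundant of the 10, at a mean of 25.5 FPKM. It was at 65.3, 44.2 and 22.2 FPKM in KO IRI, against 18.4, 8.94 and 15.8 FPKM in KO control, and at 34.2, 55.3 and 25.8 FPKM in WT IRI, against 7.72, 7.1 and 0.943 FPKM in WT control. The IRI libraries were all higher than the controls in each genotype, and the KO controls were all higher than the WT controls. It averaged 41.2 ± 16.9 FPKM in IRI and 9.8 ± 6.32 FPKM in control libraries (SD, n = 6 each), a rise of 2.171 ± 0.41 (SE, adjusted p = 0.00954).

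Mmp9 (ENSMUSG00000017737.2, chromosome 2, 164940780 to 164955850, plus strand), which neutrophils store in granules, moved the other way. It was at 2.5, 1.2 and 0.841 FPKM in KO IRI, against 11.8, 10.2 and 10.1 FPKM in KO control, and at 2.97, 2.42 and 2.41 FPKM in WT IRI, against 11.2, 16.0 and 18.4 FPKM in WT control. No IRI library reached 3 FPKM and no control was under 10. The fall of 2.21 ± 0.18 (SE, adjusted p = 0.000147) had the lowest adjusted p of the 10 transcripts. Mmp8, another granule protease of neutrophils, rose by 1.51 ± 0.29 (adjusted p = 0.00902), at 2.85 ± 1.43 FPKM in IRI and 0.294 ± 0.338 FPKM in control libraries (SD, n = 6 each). Plaur, Mmp8 and Mmp9 were the only genes past the threshold among the 8 tested for plasminogen activation and matrix proteases.

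Chil3 (ENSMUSG00000040809.10, chromosome 3, 106147554 to 106167564, minus strand) was at 20.5, 5.28 and 2.41 FPKM in KO IRI, against 1.56, 0.0457 and 0.51 FPKM in KO control. It was at 12.0, 10.5 and 9.68 FPKM in WT IRI, against 4.15 and 0.712 FPKM in WT control 1 and 2 and listed at 0 in WT control 3. Within each genotype the IRI libraries were all higher. The rise was 2.39 ± 0.49 (SE, adjusted p = 0.0139), and 2.33 (adjusted p = 0.0733) without the 3 libraries that stood apart. Chil3 has a close paralog, Chil4, at a mean of 0.758 FPKM, and how reads shared by the 2 genes were assigned is not stated.

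Adgre1 (ENSMUSG00000004730.14, chromosome 17, 57358691 to 57483527, plus strand) was at 1.89, 1.72 and 2.33 FPKM in KO IRI, against 11.8, 6.29 and 8.44 FPKM in KO control. It was at 2.01, 1.17 and 3.24 FPKM in WT IRI, against 5.9, 3.49 and 3.87 FPKM in WT control. The IRI libraries were all lower in each genotype, and the KO controls were all higher than the WT controls. Adgre1 fell by 1.25 ± 0.21 (SE, adjusted p = 0.00453). Adgre5, a relative that T cells carry as CD97, fell by 1.07 ± 0.22 (adjusted p = 0.0141, and 0.0972 without the 3 libraries that stood apart), at 118 ± 55 FPKM in IRI and 241 ± 74.1 FPKM in control libraries (SD, n = 6 each). As a check on single genes, the exact permutation test within genotype gave the smallest possible p of 0.005 for Clec4d, Mmp9, Chil3, Plaur and Adgre1, 0.01 for S100a8 and Cd14, 0.015 for S100a9 and 0.66 for Csf3r.

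**Figure D2:**
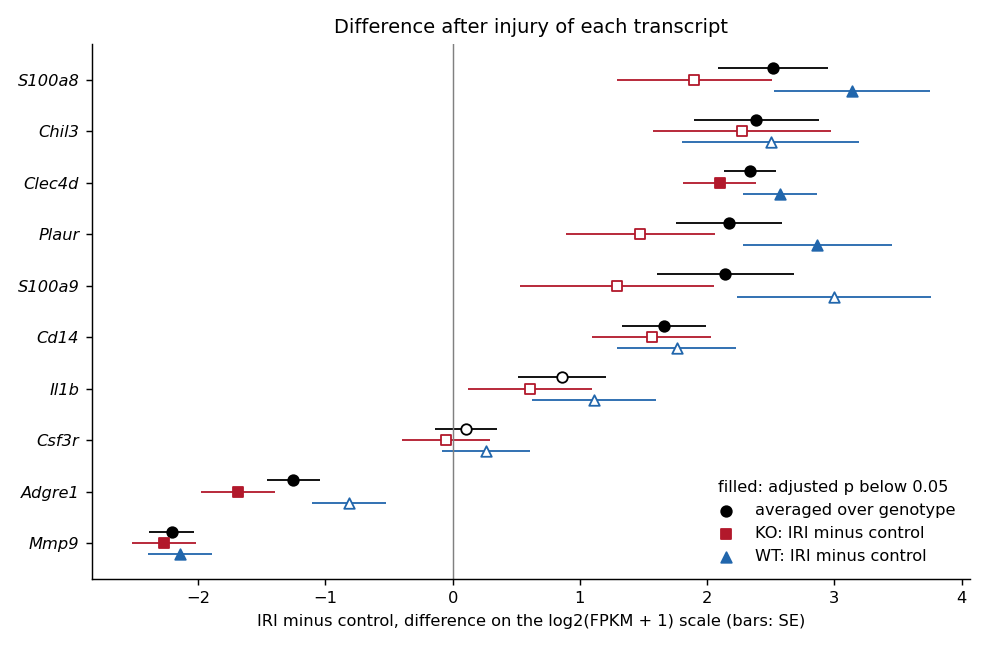
Difference between IRI and control libraries of each transcript on the log2(FPKM + 1) scale (horizontal axis, bars are SE), averaged over genotype (circles), in KO (squares) and in WT (triangles), with filled symbols for an adjusted p below 0.05. The averages run from −2.21 for Mmp9 to 2.52 for S100a8, and fewer symbols are filled within either genotype than in the average.

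The response to IRI was then read within each genotype. In KO mice, KO IRI against KO control, 1 of 10 transcripts was called higher and 2 lower, where 0.327% of tested genes were called higher and 0.539% lower (0.866% in either direction), and after rescaling it was again 1 and 2 (2.06%). Clec4d rose by 2.098 ± 0.29 (SE, adjusted p = 0.0111), and Mmp9 and Adgre1 fell by 2.27 ± 0.25 (adjusted p = 0.00491) and 1.69 ± 0.29 (adjusted p = 0.03). S100a8 (1.90 ± 0.61, adjusted p = 0.189), S100a9 (1.29 ± 0.76, 0.484), Cd14 (1.56 ± 0.47, 0.157), Chil3 (2.28 ± 0.70, 0.169) and Plaur (1.48 ± 0.59, 0.291) did not pass, and neither did Il1b (0.61 ± 0.49, 0.604) or Csf3r (−0.05 ± 0.35, 0.977). Groups did not overlap for 6 of 10, namely Clec4d, Cd14, Chil3 and Plaur above and Mmp9 and Adgre1 below, a separation found above for 8.21% and below for 9.15% of tested genes (17.4% in either direction). Adgre1 lost its call when any 1 of 8 libraries was left out (adjusted p up to 0.136), while Clec4d and Mmp9 were called in each of the 12 fits that left out 1 library. Without the 3 libraries that stood apart the count was 0 by limma (adjusted p = 0.0822 for Clec4d and 0.0587 for Mmp9).

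In WT mice, WT IRI against WT control, 3 transcripts were called higher and 1 lower, where 1.19% of tested genes were called higher and 2.59% lower (3.78% in either direction). S100a8 rose by 3.14 ± 0.61 (SE, adjusted p = 0.0204), Clec4d by 2.57 ± 0.29 (0.00197) and Plaur by 2.87 ± 0.59 (0.0251), and Mmp9 fell by 2.15 ± 0.25 (0.00219). After rescaling, S100a9 (adjusted p = 0.0257), Cd14 (0.0242) and Chil3 (0.0457) were called as well, which made 6 higher and 1 lower, where 7.94% of tested genes were called. As deposited they had differences of 3.00 ± 0.76 (adjusted p = 0.0586), 1.76 ± 0.47 (0.0681) and 2.499 ± 0.70 (0.0801). Il1b (1.11 ± 0.49, 0.26), Csf3r (0.26 ± 0.35, 0.768) and Adgre1 (−0.82 ± 0.29, 0.163) did not pass. Groups did not overlap for 8 of 10, all but Cd14 and Csf3r, where 9.28% of tested genes were separated above and 14.4% below (23.7% in either direction). The count of 4 was 2 without WT control 3, without WT IRI 1 or without WT IRI 2, and 1 without the 3 libraries that stood apart. S100a8 lost its call without WT control 1 or 3 or WT IRI 1 or 2 (adjusted p up to 0.0841), and Plaur without WT control 2 or 3 or WT IRI 1 or 2 (up to 0.111).

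Whether the response differed between genotypes was tested by the interaction, the KO response minus the WT response. No transcript passed (0 of 10 by limma as deposited and after rescaling, beside 0.00518% of all tested genes called). None of the 10 had an unadjusted p under 0.05 (limma), where 646 of 19288 tested genes did as deposited and 940 after rescaling. The differences were −1.24 ± 0.86 for S100a8, −1.70 ± 1.08 for S100a9, −1.39 ± 0.83 for Plaur and −0.87 ± 0.41 for Adgre1 (SE, adjusted p = 0.999 each). The other 6 lay between −0.50 for Il1b and −0.12 for Mmp9, also at an adjusted p of 0.999. Without KO IRI 1, S100a9 and S100a8 had an unadjusted p under 0.05 (limma), beside 701 of 19288 tested genes. With a common sum of FPKM it was Plaur (beside 1019), and Adgre1 with a pseudocount of 5 (610) or a replicate block (687). All were negative and none was called. Every other single library left out gave 0 or 1. A transcript called in WT and not in KO is therefore not shown to differ between them.

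KO and WT were also set against each other directly. After injury, KO IRI against WT IRI, 0 of 10 passed by limma, beside 0.057% of tested genes. An unadjusted p under 0.05 was reached by 1 (Mmp9, −0.57 ± 0.25, SE, adjusted p = 0.215), beside 4324 of 19288 tested genes. The median tested gene differed by 0.255 as deposited and by 0.019 after rescaling. After rescaling 0 of 10 passed by limma, beside 0.057% of tested genes. Beside 3179 of 19288 tested genes, 4 of the 10 then had an unadjusted p under 0.05, all lower in KO IRI. These were Mmp9 (−0.77 ± 0.23, SE, adjusted p = 0.189), Clec4d (−0.70 ± 0.27, 0.254), S100a9 (−1.73 ± 0.71, 0.27) and S100a8 (−1.30 ± 0.57, 0.291). Libraries were left out only on the values as deposited. Without the 3 libraries that stood apart the number there was 0, beside 2996 of 19288 tested genes. Without KO IRI 1 it was 3 (S100a9, Mmp9 and S100a8), beside 3309 of 19288 tested genes. With a common sum of FPKM it was the same 4 as after rescaling, beside 2383 genes. All were lower in KO IRI and none was called by limma. Every other single library left out gave 0 or 1. As deposited, S100a8 differed by −1.05 ± 0.61 (adjusted p = 0.326) and S100a9 by −1.50 ± 0.76 (adjusted p = 0.264), with KO IRI 1 within the WT IRI range for both and KO IRI 2 and 3 below it. Clec4d differed by −0.455 ± 0.29 (adjusted p = 0.361) and Chil3 by −0.60 ± 0.70 (adjusted p = 0.626). Csf3r (−0.29 ± 0.35, 0.63), Il1b (−0.05 ± 0.49, 0.974), Adgre1 (−0.03 ± 0.29, 0.975), Plaur (0.13 ± 0.59, 0.924) and Cd14 (0.39 ± 0.47, 0.634) were nearer to 0, and the sign of Plaur and Cd14 turned under another scaling. For no transcript were the 2 groups apart, where 32.4% of tested genes were. In the uninjured kidney, KO control against WT control, 0 of 10 passed by limma, beside 0.0259% of tested genes. An unadjusted p under 0.05 was reached by 4022 of 19288 tested genes and by 2 of the 10. These were Plaur (1.52 ± 0.59, adjusted p = 0.21) and Adgre1 (0.85 ± 0.29, adjusted p = 0.198), whose groups did not overlap, as for 23.7% of tested genes. After rescaling they differed by 1.22 (adjusted p = 0.459) and 0.55 (adjusted p = 0.548), beside 0.0363% of tested genes called, and neither had an unadjusted p under 0.05. Mmp9 was then the only one of the 10 under it, at −0.76 ± 0.23 (limma, adjusted p = 0.287), beside 2129 of 19288 tested genes. As deposited, the other 8 lay between −0.45 ± 0.25 for Mmp9 and 0.59 ± 0.47 for Cd14 (adjusted p = 0.305 to 0.99).

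Averaged over condition, KO against WT, 0 of 10 transcripts passed by limma, where 13.7% of all tested genes were called as deposited and 0.55% after rescaling. As deposited, 7139 of 19288 tested genes had an unadjusted p under 0.05 (limma), and so did 1 of the 10 (Mmp9, −0.51 ± 0.18, SE, adjusted p = 0.0729). After rescaling Mmp9 differed by −0.76 ± 0.17 (adjusted p = 0.0567) and 0 of 10 passed by limma. The median tested gene differed by 0.292 as deposited and 0.0353 after rescaling. On the values as deposited S100a8 differed by −0.43 ± 0.43 (adjusted p = 0.481), S100a9 by −0.65 ± 0.54 (0.393), Clec4d by −0.22 ± 0.20 (0.447), Csf3r by −0.14 ± 0.24 (0.705) and Chil3 by −0.49 ± 0.49 (0.481). Plaur differed by 0.82 ± 0.41 (0.17), Cd14 by 0.49 ± 0.33 (0.294), Adgre1 by 0.41 ± 0.21 (0.171) and Il1b by 0.20 ± 0.34 (0.686), and the sign of Il1b was negative after rescaling (−0.098). These comparisons share libraries with each other and with the comparisons of IRI and control.

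The 10 transcripts varied within groups in part together. On deviations from the group mean over the 12 libraries, S100a8 correlated at 0.787 with S100a9, 0.788 with Mmp9, 0.664 with Chil3, 0.189 with Clec4d and −0.05 with Adgre1, and Chil3 correlated at 0.78 with Plaur (Pearson, a description across libraries that share a depth and a sort). The largest single deviation was 1.92 on the log2 scale, for S100a9 in KO IRI 1, which was also 1.425 above its group for S100a8 and was the highest KO IRI library for all of the 10 transcripts except Adgre1. The 8 protein-coding genes outside the 10 most like S100a8 by this measure, among 12044 ranked, were 1110008P14Rik (0.957), Gin1 (0.945), Tnfrsf1b (0.945), Slc38a6 (0.93), Slc7a1 (0.928), Hist1h3d (0.926), Gm14325 (0.923) and E330009J07Rik (0.915). None of these is on the marker lists used here, and S100a9 ranked 234th by the same measure.

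**Figure D3:**
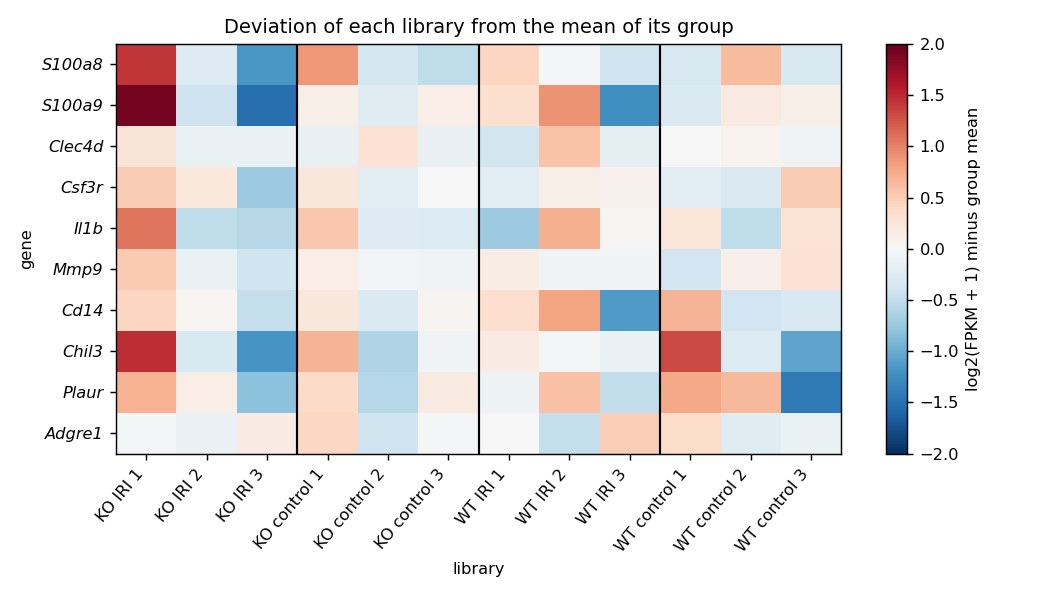
Deviation of each of the 12 libraries (columns, KO IRI, KO control, WT IRI and WT control) from the mean of its group on the log2(FPKM + 1) scale for the 10 transcripts (rows), red above and blue below the group mean. KO IRI 1 is above its group mean for S100a8, S100a9, Il1b and Chil3, and WT IRI 3 is below it for S100a9 and Cd14.

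Of 35 neutrophil markers listed, 19 were tested, 12 rose, 1 fell (Mmp9), 6 did not pass and 16 were below the filter. The list holds 5 of the 10 transcripts, and 3 of the 12 that rose are S100a8, S100a9 and Clec4d. Of the 12, 10 averaged under 1 FPKM in the control libraries, so they were tested only because IRI libraries were high, and the count and the median difference of 1.28 over those tested do not describe the whole list. Besides those described, Cxcr1, a chemokine receptor of neutrophils, was at 4.04 ± 0.957 FPKM in IRI and 0.328 ± 0.501 FPKM in control libraries (SD, n = 6 each; 1.97 ± 0.25, adjusted p = 0.00112). Lcn2, which injured tubules make as well, was at 42.6 ± 35.5 FPKM in IRI and 0.636 ± 0.648 FPKM in control libraries (4.22 ± 0.68, adjusted p = 0.004). Ly6g, the surface marker most used to sort mouse neutrophils, differed by 0.26 ± 0.35 (adjusted p = 0.69) and was highest in WT control 1 and 2, at 4.09 and 3.54 FPKM. Those below the filter included the granule genes Mpo (at most 1.3 FPKM in any library), Elane (at most 0.298), Camp (at most 0.604) and Ngp (at most 0.72). The summed FPKM of the list ran from 76.6 to 113 in KO IRI and 33.0 to 43.2 in KO control, and from 72.4 to 213 in WT IRI and 42.2 to 47.9 in WT control. Lcn2 made up 39.9 of the 76.6 FPKM in KO IRI 3, and 84.1 and 86.0 of 183 and 213 FPKM in WT IRI 1 and 2. Summed without Lcn2, a check chosen after seeing the data, the list ran from 36.7 to 104 FPKM in KO IRI and 33.0 to 42.3 in KO control, where the groups overlapped, and from 68.1 to 127 in WT IRI and 40.6 to 47.6 in WT control, where they did not. Within KO the list had 2 higher and 1 lower, and within WT 6 higher and 1 lower (11 and 1 after rescaling). Of all tested genes, 0.327% were called higher and 0.539% lower within KO, and 1.19% and 2.59% within WT (7.94% in either direction after rescaling). No gene of the neutrophil, monocyte or macrophage list passed by limma in a comparison of KO with WT on the values as deposited. The count of 12 was 8 without the 3 libraries that stood apart, 9 without KO IRI 1 and 9 once the FPKM totals were made equal.

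**Figure D4:**
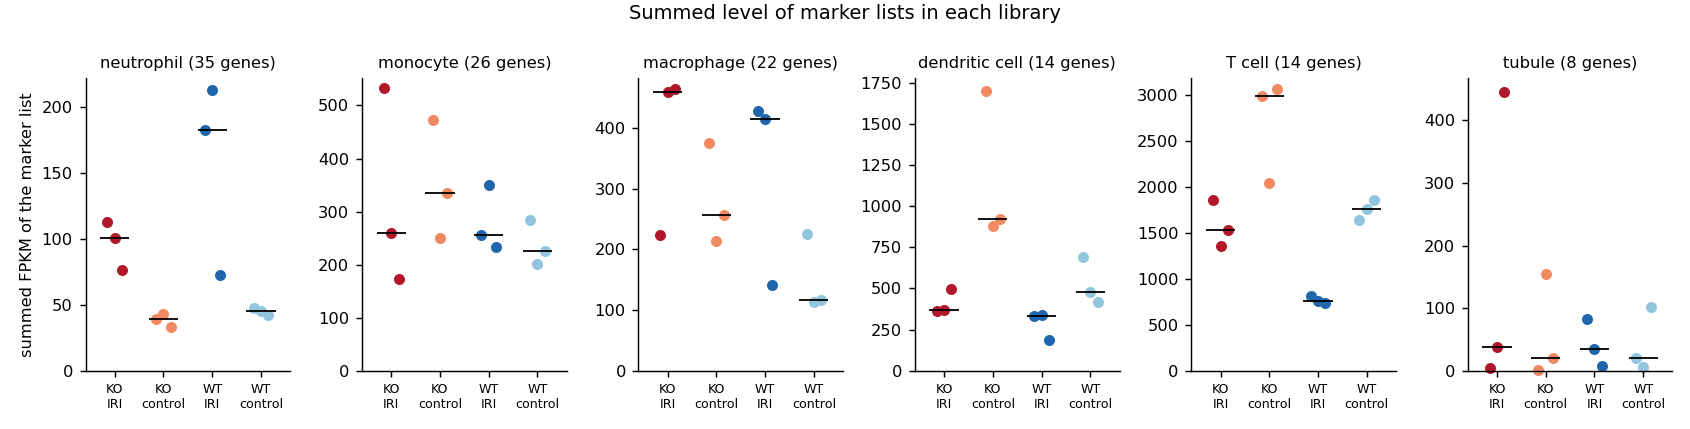
Summed FPKM of 6 marker lists (vertical axis, linear, starting at 0 and scaled per list) in each library, in columns for KO IRI, KO control, WT IRI and WT control, with the group median as a bar. Neutrophil sums lie between 72.4 and 213 in the 6 IRI libraries and between 33.0 and 47.9 in the 6 controls, but without Lcn2 KO IRI 3 is at 36.7 and inside the control range, while monocyte sums overlap and T cell sums are lower after IRI within each genotype.

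Monocyte markers split. Of 26 listed and tested, 9 rose, 4 fell and 13 did not pass, with a median of 0.228, and without the 3 libraries that stood apart the counts were 3 and 3. Vcan, a matrix proteoglycan of classical monocytes, was at 5.86 ± 3.13 FPKM in IRI and 0.435 ± 0.404 FPKM in control libraries (SD, n = 6 each; 2.15 ± 0.30, adjusted p = 0.00183). Fn1, on the same list, rose by 1.79 ± 0.47 (SE, limma, adjusted p = 0.0401), as did Cd14, Chil3 and Plaur, described above. Other markers of the 2 main monocyte classes fell. Ly6c2 was at 2.42 ± 0.766 FPKM in IRI and 31.4 ± 15.1 FPKM in control libraries (−3.16 ± 0.22, adjusted p = 0.0001), Ccr2 at 25.0 ± 12.1 FPKM in IRI and 63.1 ± 8.87 FPKM in control libraries (−1.40 ± 0.19, 0.00174) and Cx3cr1 at 1.51 ± 1.15 FPKM in IRI and 7.27 ± 2.58 FPKM in control libraries (−1.78 ± 0.27, 0.00306), and T cells can transcribe all 3. Csf1r (−0.57 ± 0.25, adjusted p = 0.196), Lyz2 (−0.85 ± 0.48, 0.318) and Itgam (1.11 ± 0.39, 0.107) did not pass, and Itgam was highest in KO IRI 1 at 29.2 FPKM. The summed FPKM of the monocyte list ran from 173 to 533 in KO IRI and 250 to 472 in KO control, and from 233 to 351 in WT IRI and 201 to 284 in WT control.

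Of 17 macrophage markers tested, 4 rose, 3 fell and 10 did not pass, with a median difference of −0.293, and after rescaling 4 rose and 4 fell. Spp1, a secreted phosphoprotein that injured tubules also make, rose by 5.34 ± 0.92 (SE, adjusted p = 0.00553), and was at 7.85, 272 and 307 FPKM in KO IRI and 242, 239 and 35.6 FPKM in WT IRI, against at most 7.48 FPKM in any control. Mertk, a receptor for dying cells, rose by 1.23 ± 0.23 (adjusted p = 0.00934), the protease gene Lgmn by 1.04 ± 0.20 (0.0106) and the scavenger receptor Msr1 by 1.21 ± 0.28 (0.0236). Besides Adgre1, the complement gene C1qa fell by 0.82 ± 0.21 (0.0374, and 0.071 with a filter of 0.1 FPKM), as did the Fc receptor-like gene Fcrls by 0.90 ± 0.24 (0.0413). The call of Msr1 was lost without the 3 libraries that stood apart (adjusted p = 0.0965). The summed list ran from 224 to 464 FPKM in KO IRI and 213 to 376 in KO control, and from 141 to 428 in WT IRI and 113 to 225 in WT control. Summed without Spp1, also chosen after seeing the data, it ran from 157 to 216 FPKM in KO IRI and 211 to 376 in KO control, and from 105 to 186 in WT IRI and 108 to 221 in WT control, and the groups overlapped in each genotype.

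Markers of the sorted cells were lower after IRI in the same libraries. Of 14 T cell genes, 9 fell, none rose and 5 did not pass, among them Cd3g (−1.76 ± 0.15, SE, adjusted p = 0.000178), Thy1 (−2.40 ± 0.27, 0.000683), Lck (−1.27 ± 0.18, 0.00203) and Cd5 (−1.18 ± 0.17, 0.00203). Cd3e fell by 0.89 ± 0.13 (0.00292), and Cd4 differed by −0.53 ± 0.20 (0.14). The summed T cell list ran from 1360 to 1860 FPKM in KO IRI and 2040 to 3060 in KO control, and from 738 to 813 in WT IRI and 1640 to 1860 in WT control. Between KO and WT averaged over condition, 12 of the 14 were higher in KO as deposited, 3 after rescaling and 0 by limma without the 3 libraries that stood apart. Of all 19288 tested genes, 2299, 73 and 23 were called higher in KO in the same fits. Cd4 was among the 12 as deposited, at 1.62 ± 0.20 (SE, limma, adjusted p = 0.00882). The part of other cells in the levels of the 10 transcripts was not tested.

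**Figure D5:**
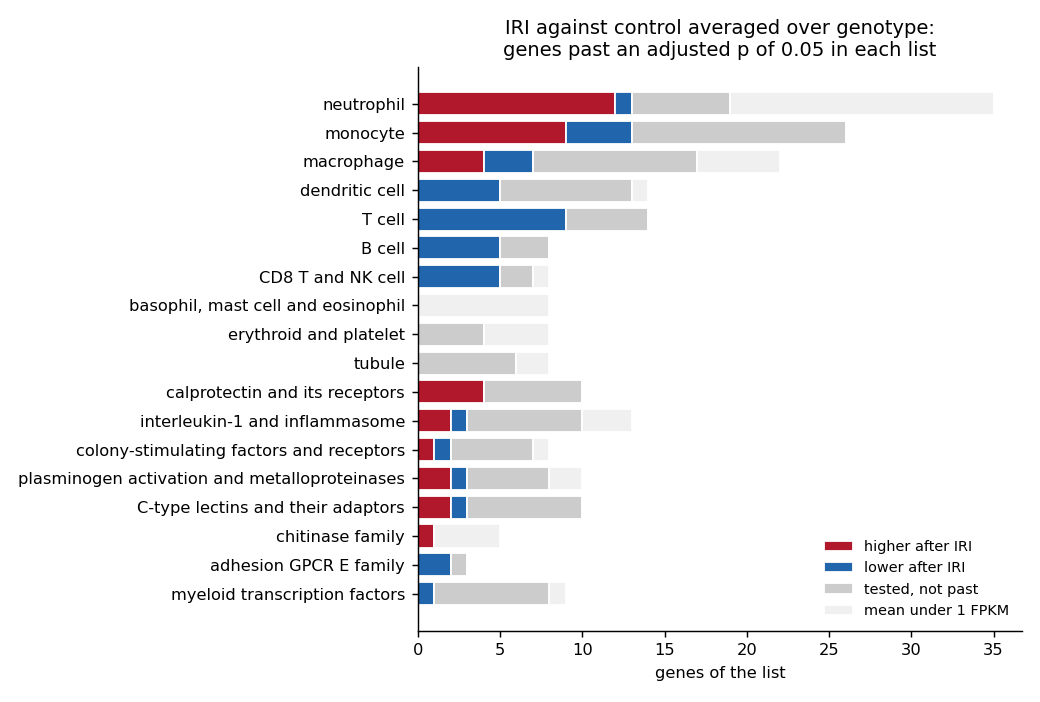
Number of genes of each marker or pathway list (horizontal bars) that were higher (red) or lower (blue) in IRI than in control libraries, averaged over genotype, at an adjusted p below 0.05, tested without passing (grey) or below a mean of 1 FPKM (light grey). The neutrophil list has 12 higher and 1 lower of 19 tested, and the dendritic cell, T cell, B cell and CD8 T and NK cell lists have lower genes and no higher ones.

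Markers of other cells the sort could hold were also counted. Lower genes and no higher ones were found among dendritic cell markers (5 of 13 tested, such as H2-Ab1, −1.68 ± 0.28, SE, adjusted p = 0.00455), B cell markers (5 of 8, such as Ighm, −1.60 ± 0.18, 0.00073) and markers of CD8 T or NK cells (5 of 7, such as Gzma, −1.52 ± 0.23, 0.00304). By limma 0 of 6 tubule and 0 of 4 erythroid and platelet markers passed, and all 8 basophil, mast cell and eosinophil markers were below the filter. Summed tubule markers ran from 4.43 to 445 FPKM in KO IRI and 0.602 to 155 in KO control, and from 7.12 to 83.0 in WT IRI and 6.49 to 102 in WT control, and KO IRI 1, the highest KO library for S100a8, had the 4.43. Of 8 tested transcription factors of myeloid cells, Irf8 fell (−1.31 ± 0.19, adjusted p = 0.00211) and 7 did not pass, and after rescaling 1 rose and 1 fell. Chil3 was the only listed gene of the chitinase family above the filter, with 4 below it.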

How the data were processed

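Total RNA (1 ng per library) from sorted kidney CD4 T cells was read as paired 36 bp reads, per the labels' protocols. The authors deposited 1 table of FPKM, per the file headers, with a value for each gene in each library. Tools named in the submitters' processing notes are Cufflinks 2.2.1, TopHat2 2.1.0, Partek 7.0 and bcl2fastq 2.17.1.14, with the build GRCm38. The annotation release, strand setting and scaling between libraries are not given in the sources used here. GENCODE release M21 paired 52399 of the 52632 IDs with symbols and gave coordinates.

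From FPKM as deposited, limma 3.58.1 (R 4.3.3, lmFit and eBayes with a trend) was fitted to log2(FPKM + 1) for the 19288 genes that average 1 FPKM or more, with 1 mean per group and 8 residual degrees of freedom. Each p was adjusted over all tested genes within each of 7 comparisons. Differences on this scale understate changes of low genes. The members and lists were chosen with earlier results of these data known. Of each list, up to 4 called genes of lowest adjusted p, or else up to 2 with the highest mean, could be named per comparison, besides Cd4, Cd3e, Ly6g, Csf1r, Lyz2, Ly6c2, Itgam and C1qa. Genes at other values, such as Fcrls, Fn1, Tlr4, Ly96, Mpo, Elane, Camp, Ngp, Nqo1 and Keap1, were named after their values were seen. Alternatives were 3 scalings, pseudocounts of 0.1 and 5, other filters, protein-coding genes only, a replicate block, a restricted fit, and leaving out libraries. The scripts were tested on simulated data. Because the depth reached in each library is unknown, no counting error is attached to a value.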

Additional observations from a re-analysis of the deposited data

How the results depend on the processing

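The count of transcripts called between IRI and control averaged over genotype, 8, was 7 to 8 when single libraries were left out and 6 without the 3 libraries that stood apart. Without those 3 libraries, 550 of all 19288 tested genes were called higher and 518 lower, beside 580 and 1164 as deposited. In WT the 4 called became 7 after rescaling by median ratios, 7 after quantile normalization, 7 with protein-coding genes only, 2 with no filter, 1 without those 3 libraries, and 2 to 6 without single libraries. Calls over all 19288 tested genes in WT were 629 higher and 902 lower after rescaling, and 730 and 1037 after quantile normalization. They were 374 and 794 of 12054 with protein-coding genes only, and 136 and 269 of 47501 with no filter. Without those 3 libraries they were 126 and 98, beside 229 and 500 as deposited. In KO the 3 called became 6 with protein-coding genes only, 1 with a common sum of FPKM, 0 in a fit restricted to the 2 groups (limma, where 5 genes of the table passed as higher, 3 as lower and 2357 had an unadjusted p under 0.05), 0 without those 3 libraries, and 2 to 3 without single libraries. Calls over all tested genes in KO were 186 higher and 365 lower of 12054 with protein-coding genes only. Of 19288 they were 8 and 46 with a common sum and 15 and 25 without those 3 libraries, beside 63 and 104 as deposited. Between KO and WT averaged over condition the count of 0 became 1 with protein-coding genes only (Mmp9, adjusted p = 0.0462), and the other genotype counts were 0 to 0 without single libraries. Of the 12054 protein-coding genes, 3825 were called higher and 355 lower in KO in that fit. Il1b passed for IRI with protein-coding genes only (adjusted p = 0.0484). Fewer genes are tested there, and the other causes were not tested. Reversals, none of them called, were Csf3r for IRI (−0.025 without KO IRI 1, with −0.025 to 0.283 over single libraries left out) and KO against WT (0.045 without KO IRI 3, range −0.263 to 0.045), and Il1b for KO against WT (−0.098 rescaled, −0.163 after quantile normalization, −0.237 with a common sum, −0.063 without KO IRI 1, range −0.063 to 0.38). For all genes, the split of 580 higher and 1164 lower after IRI was 1225 and 1414 after rescaling, and the median gene moved to −0.162 with a common sum. With the replicate number as a block, 5 were called in WT, 3 in KO, 8 averaged over genotype and 0 in the genotype comparisons. Of all tested genes, that fit called 164 higher and 385 lower in WT, 49 and 94 in KO, and 482 and 1065 averaged over genotype. Deviations of libraries that share a number correlated at −0.0371 to 0.202 (median 0.0192), and those of other pairs at −0.147 to 0.119 (median −0.00843). The 0.202 was between WT control 3 and WT IRI 3. Such correlations cannot tell whether the numbers pair libraries. FPKM without counts limits what transcripts near 0, such as the controls of S100a8 and Clec4d, can show.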
